A study of Mus musculus with 4 samples.

Results

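Cd74, H2-DMa, Ifi30, Ctss and Ctsh encode proteins that load peptides onto class II major histocompatibility complex (MHC) molecules or cut proteins in the lysosome. The genes were taken by name, and all 5 are among the 3624 genes of the deposited count table. The table holds single-cell RNA counts of progenitors of the mouse fetal liver at embryonic stage E14.5, sorted as lacking lineage markers and Sca1 and carrying Kit and CD34. It covers 2 wild-type embryos, whose libraries carry the letters F and I, and 2 Gata2-77-/- embryos, whose libraries carry the letters A and B. In the Gata2-77-/- embryos, called enhancer deleted here, an enhancer named for its position 77 kb upstream of Gata2, a transcription factor gene of blood stem and progenitor cells, is deleted. All 4 embryos are C57Bl/6J, every cell passed the same sort, and no pooling of embryos is given in the labels. The study asked how blood cell development depends on this enhancer.

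Class II molecules display peptides from proteins that a cell has taken up. CD74, the invariant chain, holds the class II groove closed until lysosomal proteases cut it down to a short fragment, which the H2-DM dimer then exchanges for a peptide. Cathepsin S, from Ctss, makes the late cuts in CD74, cathepsin H, from Ctsh, trims proteins from their ends, and the reductase from Ifi30, known as GILT, breaks disulfide bonds so that proteins can unfold. Dendritic cells, macrophages and B cells are the main cells that use the complete pathway, and monocytes and their progenitors carry many of its lysosomal enzymes.

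RefSeq promoter windows, 250 bases before to 50 bases after a transcript start on GRCm38.p6, were matched for 3 of the 5 genes; Cd74 and Ctsh were not matched. The windows of H2-DMa, Ifi30 and Ctss are shown because H2-DMa and the lysosomal genes differed in where they were expressed. Capitals mark letters found on either strand from a search for GAAA, any 2 bases and GAAA (the core of the interferon-stimulated response element), GGAA, any 2 bases and GAAA (an ETS-IRF composite element), GAGGAA (a core bound by PU.1), CCAAT (the Y box of class II genes) and CCNNGNAAC (part of their X box), of which none overlaps another here.
H2-DMa, chr17:34122582-34122881, plus strand: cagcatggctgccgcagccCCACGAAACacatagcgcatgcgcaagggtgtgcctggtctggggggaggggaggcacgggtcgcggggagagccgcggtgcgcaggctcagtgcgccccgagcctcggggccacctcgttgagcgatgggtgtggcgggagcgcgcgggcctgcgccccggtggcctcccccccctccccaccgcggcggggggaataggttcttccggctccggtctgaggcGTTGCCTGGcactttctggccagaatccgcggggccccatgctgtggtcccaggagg
Ifi30, chr8:70766614-70766913, minus strand: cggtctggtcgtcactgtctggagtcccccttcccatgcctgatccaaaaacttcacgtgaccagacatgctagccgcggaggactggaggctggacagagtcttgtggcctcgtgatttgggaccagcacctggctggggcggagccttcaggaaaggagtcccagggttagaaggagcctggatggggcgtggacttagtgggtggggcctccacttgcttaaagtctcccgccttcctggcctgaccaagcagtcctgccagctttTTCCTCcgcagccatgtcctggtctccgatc
Ctss, chr3:95526536-95526835, plus strand: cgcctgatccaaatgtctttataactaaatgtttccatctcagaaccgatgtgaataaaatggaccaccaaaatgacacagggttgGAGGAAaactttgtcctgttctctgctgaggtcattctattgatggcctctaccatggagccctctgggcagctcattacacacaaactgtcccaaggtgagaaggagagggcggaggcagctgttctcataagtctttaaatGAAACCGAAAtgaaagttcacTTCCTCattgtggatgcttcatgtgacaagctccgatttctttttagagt

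The Ctss window holds 1 match to the interferon-stimulated core, 21 bases before the start, a core found in 3.44% of 32851 RefSeq promoter windows of this length. It also holds the PU.1 core at 2 places and the Ifi30 window holds it once, against 28.3% of all windows. The H2-DMa window is rich in G and C, at 73% of its bases, and matches the partial X box at 2 places, as 15.1% of all windows do at least once. It lies inside the GENCODE span of H2-DMa, which begins before it, at chr17:34119541, and which Brd2 overlaps on the opposite strand. Which start these cells use for H2-DMa was not tested. A second H2-DMa window in RefSeq, at chr17:34125268-34125567, matched CCAAT once, which 37.4% of windows hold. The ETS-IRF element, present in 2.72% of windows, matched none of them. A match describes letters only and does not show that a factor binds there.

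On the mouse genome build GRCm38 (mm10), GENCODE M21 places Cd74 at chr18:60803848-60812652 and H2-DMa at chr17:34119541-34139101, both on the plus strand. Ifi30 lies at chr8:70762774-70766663 on the minus strand, Ctss at chr3:95526786-95556403 and Ctsh at chr9:90054152-90076089, both on the plus strand. H2-DMa overlaps 4 other annotated genes, 1 of them on its own strand, and Brd2 among them runs on the opposite strand. Cd74 and Ctss each overlap 1 small annotated gene on their own strand, Ifi30 overlaps 1 on the opposite strand, and Ctsh overlaps none. Whether counting used strand is not given in the sources used here.

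The 4 libraries hold 9960 cells, between 1938 and 3042 each, with 16837863 to 40117680 UMIs (unique molecular identifiers, counts of single RNA molecules) per library. The median cell held 12827 and 17438 UMIs in the wild-type libraries and 7492 and 7087 in the enhancer-deleted ones, so depth differed between the genotypes. Levels are in CPM, a gene's UMIs scaled to one total per library over the panel of 3624 genes. Gata2 itself was at 26.3 and 23.2 CPM in the wild-type and 7.48 and 6.73 CPM in the enhancer-deleted libraries. Cd34 was detected in 67.6% to 83.4% of cells per library and Kit in 24% to 50.2%. Libraries I and B, 1 of each genotype, express Xist, and no 2 cells were identical. Classes of cells were built by clustering without the 5 genes or the other genes of their pathways, so that their levels could be read in each class. Cell mixes differed between genotypes: neutrophil-like cells were 31.1% and 19.7% of wild-type and 2.19% and 1.06% of enhancer-deleted cells, monocyte/macrophage-like cells 13.9% and 19.3% against 25.1% and 20.4%, and HSPC/multipotent-like cells (blood stem and multipotent progenitors) 17.5% and 20.6% against 30.5% and 31.9%.

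Over all cells, H2-DMa was the 1 gene of the 5 that differed between genotypes beyond the spread between libraries, and it was higher without the enhancer. Both enhancer-deleted libraries also lay above both wild-type libraries for Ifi30, Ctss and Ctsh, whose differences did not pass the test, while the libraries overlapped for Cd74. In the table as a whole, 8.86% of 3622 genes passed (2.76% higher without the enhancer and 6.1% lower) by edgeR's quasi-likelihood test with Benjamini-Hochberg adjustment at a threshold of 0.05. Genotypes that do not overlap were common: 54.1% of the genes tested had them, 35.5% with the enhancer-deleted libraries above. The 4 such genes here are to be read against that share. It was computed for CPM over all cells only, and not within classes or clusters.

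**Figure D1:**
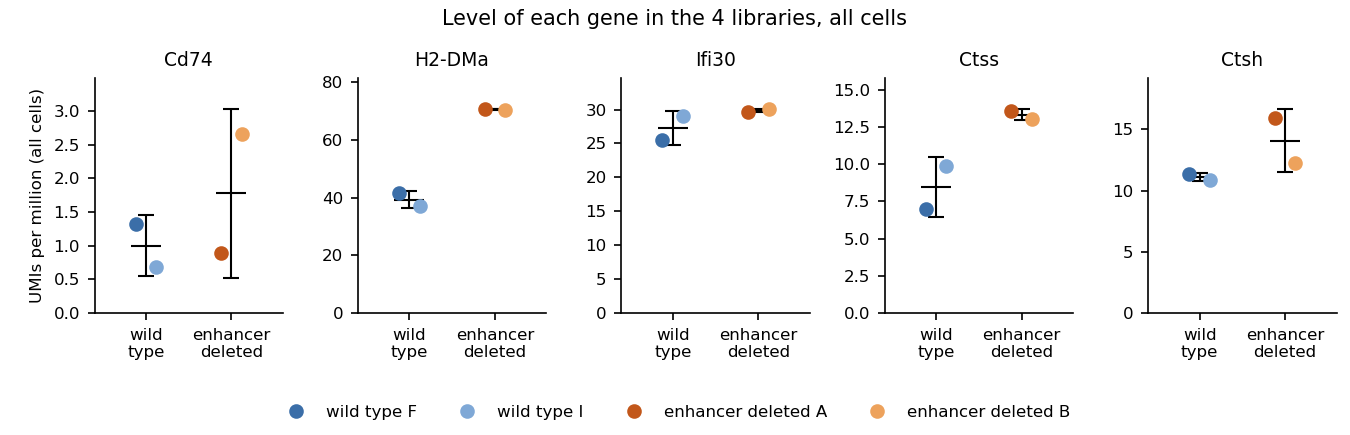
CPM (vertical axes, from 0, each gene on its own scale) of the 5 genes over all cells, 1 point per library; bars give the mean and SD of the 2 libraries of a genotype. For H2-DMa the enhancer-deleted points lie at 70.7 and 70.5 CPM and the wild-type points at 41.5 and 37.3 CPM.

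Cd74, the class II chaperone, was barely detected in these progenitors. It had 53 and 23 UMIs in the wild-type libraries F and I and 15 and 53 in the enhancer-deleted libraries A and B, or 1.32, 0.678, 0.891 and 2.66 CPM. The highest and the lowest of these are 1 library of each genotype, and the groups overlapped. The edgeR difference was 0.76 ± 0.69 (log2, SE), with an adjusted p of 0.555, and it was -0.19 without library B. These UMIs came from 24, 12, 15 and 23 cells, and single cells weighed heavily: 1 monocyte/macrophage-like cell held 24 of the 53 UMIs of library B, and 1 HSPC/multipotent-like cell held 13 of 53 in library F and 1 held 10 of 23 in library I. In library A no cell had more than 1.

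Only 6 of the 9960 cells held 5 or more Cd74 UMIs. They were 2 monocyte/macrophage-like cells of library B, 2 HSPC/multipotent-like cells and 1 neutrophil-like cell of library F, and 1 HSPC/multipotent-like cell of library I. The library B cell with 24 Cd74 UMIs also held 11 UMIs of Id2, a transcription factor gene of dendritic and innate lymphoid cells, and 3 of the B lymphoid gene Cd79b. It held 1 each of the dendritic list's Flt3 and Bst2 and none of Tcf4, a gene of plasmacytoid dendritic cells, or of Irf8. The library I cell with 10 Cd74 UMIs held 7 UMIs of Ebf1 and 5 of Cd79b, both genes of early B lymphocytes, and also 8 of Bst2, 5 of Flt3 and 3 of Tcf4. The 3 library F cells held 6 or 7 UMIs of Bst2 and at most 1 of Tcf4. The panel holds 4 of the 13 listed dendritic markers (Flt3, Id2, Bst2 and Tcf4) and 2 of 9 B lymphoid ones. All 6 were chosen after their values were seen, and no cell type was assigned to them beyond their cluster.

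H2-DMa, the alpha chain of the H2-DM peptide editor, was at 41.5 and 37.3 CPM in the wild-type and 70.7 and 70.5 CPM in the enhancer-deleted libraries, from 1191 to 1665 UMIs per library. The enhancer-deleted values lie closer together than the wild-type ones and far above them. The mean rose from 39.4 ± 2.97 to 70.6 ± 0.180 CPM (SD, n = 2 libraries each), a log2 fold change of 0.79 ± 0.09 (SE) or 1.73-fold, with an edgeR adjusted p of 0.00950. Without library A the estimate was 0.74 with an adjusted p of 0.0742, which misses the threshold. Without the monocyte/macrophage-like cells it was 0.75 with an adjusted p of 0.0166, so the higher level was also present in the sum of the remaining cells, which differ in their mix of classes too and where 11.5% of genes passed.

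Ifi30, the lysosomal thiol reductase, was at 25.5, 29.0, 29.7 and 30.02 CPM in libraries F, I, A and B. Wild-type library I lies closer to both enhancer-deleted libraries than to wild-type library F. The edgeR estimate was 0.08 ± 0.10 (log2, SE), adjusted p = 0.666.

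Ctss, the gene of cathepsin S, was at 7.03 and 9.88 CPM in the wild-type and 13.6 and 13.1 CPM in the enhancer-deleted libraries. Both enhancer-deleted libraries were higher, but the wild-type libraries lay far apart, and the estimate of 0.61 ± 0.26 (log2, SE) had an edgeR adjusted p of 0.224. Ctsh, the gene of cathepsin H, was at 11.4, 10.9, 15.9 and 12.2 CPM in libraries F, I, A and B. Library B lay nearer to the wild-type libraries than to library A, and the estimate was 0.29 ± 0.24 (log2, SE), adjusted p = 0.513.

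The 3 lysosomal genes were found mainly in monocyte/macrophage-like cells, whereas H2-DMa was spread over most classes. Monocyte/macrophage-like cells contributed 18.0% to 25.7% of the panel UMIs of a library. They held 67.8% to 76.4% of the Ctss UMIs, 72.8% to 81.0% of the Ctsh UMIs and 51.8% to 69.8% of the Ifi30 UMIs. Of the H2-DMa UMIs they held 36.8% to 49.4%, and HSPC/multipotent-like cells held a further 18.0% to 25.8%. For Cd74 the monocyte/macrophage-like share was 20.8% and 17.4% in the wild-type and 66.7% and 73.6% in the enhancer-deleted libraries, from 4 to 39 UMIs.

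**Figure D2:**
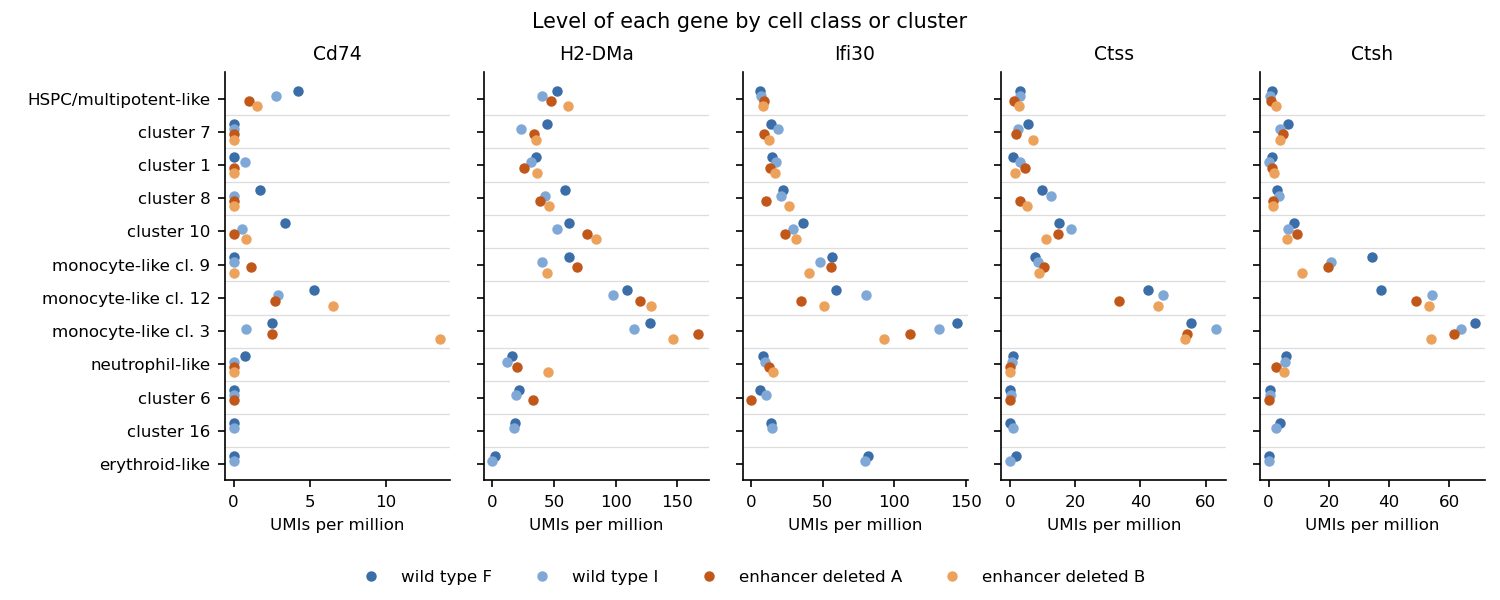
CPM (horizontal axes, each gene on its own linear scale) of the 5 genes in cell classes and numbered clusters (rows), 1 point per library with at least 20 cells there. Monocyte-like cluster 3 holds the highest H2-DMa, Ctss and Ctsh points, and Ifi30 is also high in erythroid-like cells, where H2-DMa is at or near 0.

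The monocyte/macrophage-like class joined 3 clusters that differed in these genes. Cluster 3 was led by Trem2, Lgals3 and Fcgr1, genes of macrophages and maturing monocytes, and cluster 12 by Nrp1 and Ccr2. Leading genes of cluster 9 included Nrg1, and Ly6c2 and Klf4, genes of inflammatory monocytes and their precursors. Cluster 9 also had the neutrophil markers Elane and Ctsg. Klf4 was a marker of all 3 clusters, while Csf1r, Ccr2 and Trem2 were markers of clusters 3 and 12 and not of cluster 9. Ctss was at 55.4, 63.1, 54.3 and 53.7 CPM in cluster 3 (libraries F, I, A and B), 42.5, 46.8, 33.6 and 45.5 CPM in cluster 12, and 7.67, 8.46, 10.5 and 8.78 CPM in cluster 9. The ranges of clusters 3 and 12 did not meet each other, and both stood far above cluster 9. Ctsh fell in the same order, from 53.7 to 68.4 CPM in cluster 3 through 37.2 to 54.2 CPM in cluster 12 to 11.0 to 34.3 CPM in cluster 9, with clusters 3 and 12 overlapping.

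H2-DMa in cluster 3 was at 128 and 115 CPM in the wild-type and 167 and 147 CPM in the enhancer-deleted libraries. In cluster 12 it was at 109, 98.1, 120 and 129 CPM, and in cluster 9 at 61.9, 40.5, 68.7 and 43.9 CPM. Both genotypes therefore had more H2-DMa in the clusters led by macrophage and Ccr2 genes than in the Ly6c2-led cluster. Ifi30 was highest in cluster 3 too, at 144, 131, 111 and 92.7 CPM, and here the wild-type libraries were the higher ones. In cluster 12 it was at 59.4, 80.5, 34.5 and 50.9 CPM and in cluster 9 at 56.8, 47.8, 55.9 and 40.6 CPM.

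Outside the monocyte/macrophage-like class, the wild-type order of H2-DMa ran from cluster 10 (61.8 and 52.0 CPM), led by genes of cell division and Irf8, through cluster 8 (58.9 and 42.6 CPM), HSPC/multipotent-like cells (52.0 and 39.9 CPM), the low-depth cluster 0 (53.5 and 30.4 CPM), cluster 7 (44.6 and 22.9 CPM) and cluster 1 (35.6 and 31.3 CPM). These neighbours overlapped one another. Below them, without overlap, came cluster 6, led by the mast and basophil gene Cpa3, at 21.3 and 19.5 CPM, cluster 16, with erythroid and mast cell genes, at 18.5 and 17.2 CPM, and neutrophil-like cells at 15.5 and 11.8 CPM. Erythroid-like cells had 1 H2-DMa UMI in the 51 cells of library F and none in the 37 cells of library I.

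In the same wild-type libraries the proteases fell away faster. Ctss was at 15.04 and 18.8 CPM in cluster 10, 9.72 and 12.5 CPM in cluster 8, and 3.08 and 3.15 CPM in HSPC/multipotent-like cells, and at most 1.04 CPM in neutrophil-like cells and in clusters 6 and 16. Ctsh dropped from 45.9 and 36.3 CPM in the monocyte/macrophage-like class to 8.35 and 6.44 CPM in cluster 10, and to 1.13 and 0.350 CPM in HSPC/multipotent-like cells, the latter from 7 and 2 UMIs. Neutrophil-like cells kept 5.80 and 5.48 CPM of Ctsh, where Ctss was at 0.840 and 0.645 CPM. Cd74 had its highest wild-type value in HSPC/multipotent-like cells, 4.22 and 2.80 CPM, and its ranges overlapped in all neighbouring classes.

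Ifi30 departed from the other 4 genes in erythroid-like cells, which express globin genes. There it was at 81.4 and 79.7 CPM in the wild-type libraries, within the range of the monocyte/macrophage-like class (85.8 and 75.0 CPM). The 46 UMIs of library F came from 28 of 51 cells and the 31 of library I from 19 of 37, and no cell held more than 13% or 9.68% of them. Over the same cells, H2-DMa had 1 and 0 UMIs, Ctss 1 and 0, and Ctsh and Cd74 none. Irf8, a transcription factor gene of monocytes, had 4 and 0 UMIs and Csf1r, the receptor of their growth factor, had 3 and 2. Lyz2, at 958 and 887 CPM in monocyte/macrophage-like cells of libraries F and I, had 4 and 13 UMIs. The enhancer-deleted libraries hold 3 erythroid-like cells each, with no Ifi30 UMI, which is too few to compare.

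Within monocyte/macrophage-like cells H2-DMa was at 89.8 and 67.3 CPM in the wild-type and 136 and 121 CPM in the enhancer-deleted libraries. Ctss was at 27.9 and 27.8 against 40.4 and 42.4 CPM. For both genes the enhancer-deleted libraries were the higher ones and the genotypes did not overlap. The edgeR estimates were 0.74 ± 0.16 for H2-DMa and 0.60 ± 0.13 for Ctss (log2, SE), and both had an adjusted p of 0.0768, which misses the threshold. In this class 1.2% of 3570 genes passed. With library F left out, H2-DMa (1.00, adjusted p = 0.00258) and Cd74 (3.54, adjusted p = 0.0340) passed, as did 200 of 3569 genes. Against 43 genes with the 4 libraries, 21 passed without library I, 5 without library A and 1 without library B, none of them among the 5 genes.

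The clusters inside the class were not equally filled. Cluster 9 made up 202 of 424 and 218 of 375 cells of the wild-type libraries but 91 and 98 of 560 cells of the enhancer-deleted ones, and cluster 3 went from 151 and 116 to 302 and 308 cells. Within cluster 3 alone the edgeR estimate of H2-DMa was 0.40 (adjusted p = 0.200) and that of Ctss was -0.10 (adjusted p = 0.798), and within cluster 9 they were 0.15 and 0.25 (adjusted p = 0.953 and 0.941). In clusters 3 and 9, 0.509% and 0% of genes passed. The share of the whole-class difference that comes from the unequal filling was not tested.

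**Figure D3:**
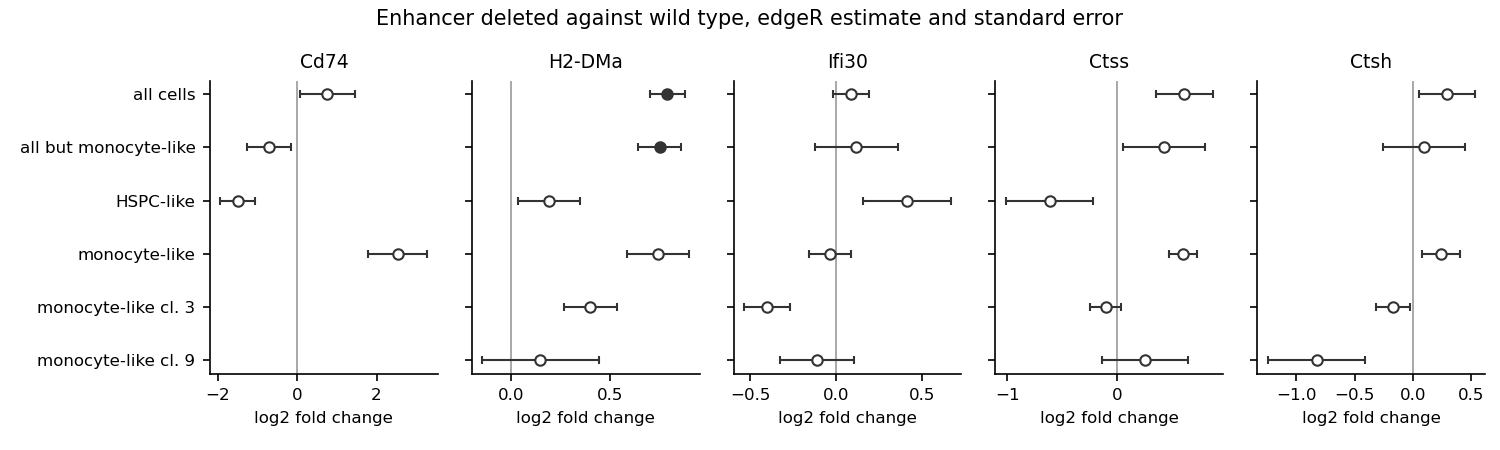
Log2 fold change of enhancer-deleted against wild-type libraries (horizontal axes, each gene on its own scale, grey line at 0) with the standard error, from edgeR, over all cells and in parts of them (rows). Filled points have an adjusted p under 0.05, which H2-DMa reached over all cells and without monocyte/macrophage-like cells; a missing point means that the gene was not tested there.

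For Ifi30 and Ctsh the whole class and its cluster 3 differed in which genotype was higher, or in how far. Over the class, Ifi30 was at 85.8, 75.0, 80.5 and 72.6 CPM (libraries F, I, A and B) with an edgeR estimate of -0.04, and Ctsh at 45.9, 36.3, 50.1 and 44.5 CPM with an estimate of 0.24 (adjusted p = 0.907 and 0.489). Within cluster 3, both genes were higher in the 2 wild-type libraries, Ifi30 by an estimate of -0.40 (adjusted p = 0.199) and Ctsh by -0.17 (adjusted p = 0.635), neither past the threshold. Cd74 in the class was at 1.52 and 0.489 CPM against 2.31 and 9.13 CPM, an estimate of 2.54 ± 0.74 with an adjusted p of 0.144.

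In HSPC/multipotent-like cells H2-DMa was at 52.0 and 39.9 CPM in the wild-type and 47.3 and 61.0 CPM in the enhancer-deleted libraries. The libraries overlapped, and the edgeR estimate was 0.19 ± 0.16 (adjusted p = 0.620). Ifi30 was at 5.84, 7.01, 9.18 and 8.42 CPM in these cells, with an estimate of 0.41 (adjusted p = 0.519). Ctss and Cd74 went the other way, with estimates of -0.62 (adjusted p = 0.529) and -1.50 (adjusted p = 0.227), from at most 26 UMIs per library. In cluster 10 H2-DMa was at 61.8 and 52.0 against 76.8 and 84.2 CPM (0.55 ± 0.15, adjusted p = 0.174), and in cluster 8 Ctss was at 9.72 and 12.5 against 3.20 and 5.24 CPM (-1.35 ± 0.39, adjusted p = 0.402). DESeq2's Wald test passed H2-DMa and Cd74 in monocyte/macrophage-like cells. By edgeR, none of the 5 genes passed in any of the 6 classes with at least 50 cells in every library. There 0.448% of genes passed in HSPC/multipotent-like cells, 0.799% in cluster 1, 0.0567% in cluster 7, 0.282% in cluster 8 and 0% in cluster 10.

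Whether a genotype difference itself differed between classes was tested for the 15 pairs of these 6 classes, each by an edgeR interaction with library as a factor. H2-DMa differed by 0.55 ± 0.15 (log2, SE; adjusted p = 0.0191) between monocyte/macrophage-like and HSPC/multipotent-like cells, the enhancer-deleted excess being larger in the former. Cd74 differed by 4.06 ± 0.75 (adjusted p = 0.00193) between the same classes, where 12.9% of 3595 genes passed. The H2-DMa value was 0.29 (adjusted p = 0.327) without library A. With cluster 3 in place of the whole class, where 10.2% of genes passed, it was 0.21 (adjusted p = 0.409), while Cd74 passed at 3.81 (adjusted p = 0.00559) and Ifi30 at -0.81 (adjusted p = 0.0300). The Cd74 value was 1.87 (adjusted p = 0.172) without the cell holding most Cd74 UMIs in each library, and it missed the threshold without library A (4.46, adjusted p = 0.150) and without library B (3.09, adjusted p = 0.190). Of all genes, 463 passed with the 4 libraries, 1 without library A and 442 without library B.

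Cluster 8, led by genes of the cell cycle and ribosome assembly such as Ccne1 and Brix1, differed from the monocyte/macrophage-like class for both Ctss and H2-DMa. The genotype difference was greater in the monocyte/macrophage-like cells by 1.96 ± 0.39 for Ctss (adjusted p = 1.36e-04) and by 0.96 ± 0.17 for H2-DMa (adjusted p = 1.19e-05), where 8.82% of 3581 genes passed. Both passed with each library left out in turn, at adjusted p up to 0.0441 for Ctss and 0.00474 for H2-DMa. With cluster 3 in place of the whole class, where 4.77% of 3563 genes passed, Ctss missed the threshold (1.22, adjusted p = 0.0529) and H2-DMa passed at 0.60 (adjusted p = 0.0286). H2-DMa also differed by -0.77 ± 0.19 between clusters 8 and 10 (adjusted p = 0.0220), where 2.99% of 3544 genes passed; it missed the threshold without any 1 of libraries A, B and F. Ctss and Ifi30 did not pass between monocyte/macrophage-like and HSPC/multipotent-like cells, at 1.23 (adjusted p = 0.0602) and -0.44 (adjusted p = 0.235). In the other 12 pairs, no gene of the 5 passed by edgeR. The share of all genes that passed there was 9.52% for cluster 10 against HSPC/multipotent-like cells, 2.18%, 1.57% and 1.34% for monocyte/macrophage-like cells against clusters 1, 7 and 10, and 0.446%, 0.279% and 0.893% for HSPC/multipotent-like cells against clusters 1, 7 and 8. It was 0.761% for clusters 1 and 10, 0.0282% for clusters 7 and 8, and 0% in the 3 remaining pairs.

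With the mix of the 6 classes held equal in the 4 libraries, H2-DMa and Ctss differed less between genotypes than over all cells. That comparison also drops the cells outside the 6 classes, and the part of each step was not tested. With each class weighted by its share of all UMIs, H2-DMa was at 64.2 and 48.2 CPM in the wild-type and 74.7 and 76.8 CPM in the enhancer-deleted libraries. The enhancer-deleted libraries stayed above, and the ratio of means was 1.35, against 1.79 over all cells. Ctss was at 13.1 and 13.7 against 15.7 and 16.8 CPM, a ratio of 1.21 compared with 1.58 over all cells. Ifi30 had a ratio of 0.946 and Ctsh 1.13, and for both the libraries overlapped. The exact two-sided permutation test over 4 libraries cannot give a p below 0.333, the value reached by H2-DMa and Ctss. How many of all genes reach it with this mix was not computed.

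With the finer mix of 13 clusters, the genes parted. H2-DMa was at 58.7 and 45.8 against 61.0 and 65.8 CPM, so the enhancer-deleted libraries were still above, by a ratio of 1.21. Ctss (12.1 and 13.8 against 10.9 and 11.5 CPM), Ctsh (15.5 and 13.5 against 12.9 and 11.1 CPM) and Ifi30 (34.7 and 33.5 against 28.5 and 29.9 CPM) were now higher in both wild-type libraries, with ratios of 0.864, 0.825 and 0.855. How many of all genes do not overlap, or change direction, under this mix was not computed. The 6 classes hold 50.7% and 64.1% of the wild-type and 86.9% and 92.2% of the enhancer-deleted UMIs, and the 13 clusters 72.1%, 77.2%, 96.9% and 98.9%. Neutrophil-like cells are outside the 6 classes because the enhancer-deleted libraries hold 49 and 29 of them. Whether finer clusters are themselves split along genotype was not tested.

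**Figure D4:**
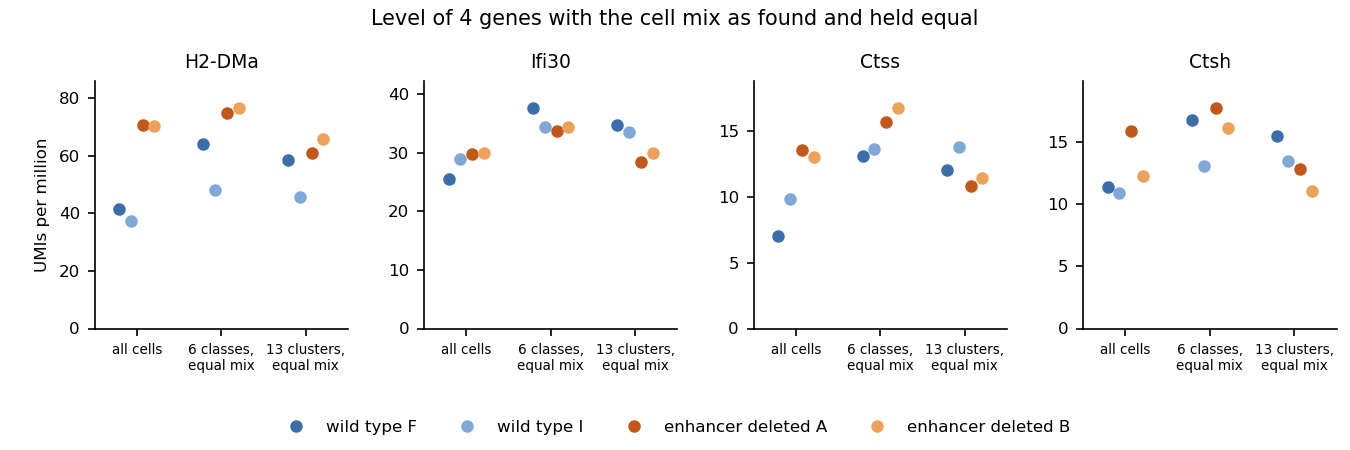
CPM (vertical axes, from 0, each gene on its own scale) of 4 genes, 1 point per library. The cell mix is as found over all cells, or held equal over the cells of 6 classes or 13 clusters only. H2-DMa stays higher in the enhancer-deleted libraries throughout, while Ctss and Ctsh turn from higher to lower with 13 clusters.

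Median depth differed between the genotypes, so cells were thinned to the same 4346 UMIs; 140 shallower wild-type cells and 855 shallower enhancer-deleted cells could not enter. H2-DMa then had a UMI in 15% and 13.3% of wild-type and 24.7% and 25.7% of enhancer-deleted cells. Ctss was found in 2.35% and 3.35% against 5.50% and 5.51%, Ifi30 in 7.74% and 8.96% against 10.02% and 10.4%, and Ctsh in 3.65% and 3.20% against 6.10% and 4.46%. For these 4 genes both enhancer-deleted libraries had the larger share, with the smallest exact permutation p the design allows, 0.333. How many of all genes do the same in thinned cells was not computed, so the count says nothing particular to these genes. Without thinning, the shares were 33.0%, 37.6%, 35.1% and 34.6% for H2-DMa, 6.08%, 9.96%, 7.74% and 7.72% for Ctss, 18.7%, 24.8%, 14.3% and 15.7% for Ifi30, and 8.61%, 9.80%, 8.19% and 6.19% for Ctsh. Thinned to 9777 UMIs instead, the enhancer-deleted minus wild-type difference over all cells was 10.5 percentage points for H2-DMa, 2.20 for Ifi30 and 1.25 for Ctss, but -2.11 for Ctsh. Shallower cells could not enter there, which left out most enhancer-deleted cells, whose library medians were 7492 and 7087 UMIs.

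Among thinned monocyte/macrophage-like cells, H2-DMa was seen in 32.6%, 23.5%, 42.9% and 41.3% (libraries F, I, A and B), Ctss in 11.1%, 11.2%, 15.8% and 17%, Ifi30 in 25.1%, 24.1%, 22.9% and 22.6%, and Ctsh in 16.8%, 11.5%, 18.4% and 15.2%. At 9777 UMIs the difference in this class was -1.61 percentage points for Ctss and -9.64 for Ctsh. The direction for both therefore changed with the depth chosen, and with it the cells that could enter. The median enhancer-deleted cell of this class held 7682 and 7834 UMIs, so most of these cells were left out at 9777. Unthinned, the same class had H2-DMa in 68.9%, 62.1%, 57.0% and 53.0% of its cells. In erythroid-like cells, thinned alike, H2-DMa was in 1 of 49 cells (2.04%) of library F and 0 of 36 of library I, which allows a share of up to 8.33%, and Ctss and Ctsh in none. The median depth of those cells before thinning was 11105 and 9494 UMIs, against 17095 and 22534 in the wild-type monocyte/macrophage-like cells. Ifi30 was in 24.5% and 16.7% of the erythroid-like cells. These limits cover counting error only.

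The genes also met in the same cells. Among thinned monocyte/macrophage-like cells, 3 or more of the 5 were seen in 4.49% and 3.48% of wild-type and 9.09% and 6.63% of enhancer-deleted cells, and in at most 0.405% of HSPC/multipotent-like cells in any library. Cells with a Ctss UMI held a Ctsh UMI in 31.9%, 19.0%, 36.3% and 27.6% of cases (libraries F, I, A and B), against 14.9%, 10.5%, 15% and 12.7% of cells without Ctss. The pairing was higher in every library for this pair, and for Ctss with Ifi30 (36.2%, 40.5%, 41.3% and 33.3% against 23.7%, 22%, 19.5% and 20.4%). All pairings here were counted over the whole class, whose clusters differ in the level of these genes. Pairing within a cluster was not tested. For H2-DMa in cells with and without Ctss the shares were 53.2%, 35.7%, 45% and 42.5% against 30.1%, 22%, 42.5% and 41.1%. The enhancer-deleted libraries thus showed little difference when split by Ctss. Split by Ctsh, the H2-DMa shares were 40.8%, 30.2%, 49.5% and 61.5% against 31.0%, 22.7%, 41.4% and 37.7%. Split by Ifi30, they were 42.5%, 32.2%, 52.6% and 50.9% against 29.3%, 20.8%, 40% and 38.5%, so both splits were higher in every library.

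Over the 24 sums of library and class, log2(CPM + 1) of Ifi30, Ctss and Ctsh ran closely together, with Pearson's r of 0.86 for Ifi30 and Ctss, 0.86 for Ctss and Ctsh, and 0.85 for Ifi30 and Ctsh. H2-DMa had r of 0.78, 0.76 and 0.69 with Ctss, Ctsh and Ifi30, and Cd74 had at most 0.62, with H2-DMa. The sums share libraries and depth, so these are descriptions with no test. Among 3540 genes of at least 20 CPM in 1 sum, those most like H2-DMa were Gnai2, a G protein subunit gene (0.90), Tnfaip8l2 (0.88) and Selplg, the gene of a selectin ligand on white blood cells (0.86). Those most like Ctss were Pld4 (0.92), Napsa, the gene of the lysosomal aspartic protease napsin A (0.92), and Unc93b1, the gene of a chaperone of endosomal Toll-like receptors (0.89). Ctsh was most like Psap, the gene of the sphingolipid activator prosaposin (0.96), Gm26522 (0.93) and Sat1 (0.93). Ifi30 was most like Ncf4, a gene of the phagocyte oxidase (0.93), Ostf1 (0.93) and Ms4a4c (0.92), and Cd74 was most like Lsp1 (0.77), Mndal (0.75) and Ckb (0.70).

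Other genes of the pathway did not share one direction over all cells. The 16 listed class II genes and their regulators, Ciita among them, are outside the panel and were not analysed here. Of 12 measured genes of class I presentation, 3 rose and none fell, where 2.76% of all genes rose and 6.1% fell, and the median log2 fold change was 0.11 against 0.00 over all genes. The 3 were subunits of the immunoproteasome, which cuts peptides for class I: Psmb9 (83.3 and 82.6 to 116 and 124 CPM, log2 fold change 0.48), Psmb8 (281 and 285 to 376 and 414 CPM, 0.43) and Psmb10 (177 and 202 to 246 and 260 CPM, 0.37), with edgeR adjusted p of 0.00830, 0.0178 and 0.0487.

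Of 11 other lysosomal proteases and inhibitors, 1 rose and 3 fell, to be read against the same 2.76% and 6.1%, with a median of -0.25. Cst7, an inhibitor of cathepsins, fell from 196 and 158 to 90.9 and 92.1 CPM (log2 fold change -1.01, adjusted p = 0.0111), and Napsa fell by 0.32 on the log2 scale (adjusted p = 0.0207). Ctsd, the gene of cathepsin D, also fell (-0.25, adjusted p = 0.0482), while Prcp, a lysosomal carboxypeptidase gene, rose by 0.34 (adjusted p = 0.0359). Ctsb, Ctsc, Ctsl and Ctsz, the genes of cathepsins B, C, L and Z, did not pass, at -0.37, -0.47, -0.25 and -0.02.

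Among 19 other lysosomal genes 1 rose and 5 fell, against 2.76% and 6.1% of all genes, with a median of -0.20. Psap rose by 0.38 (adjusted p = 0.0359). Cd63, a lysosomal membrane gene abundant in mast and basophil cells, fell by 1.53 (adjusted p = 0.00797), Neu1, a sialidase gene, by 1.09 (adjusted p = 0.0111), and Atp6ap2, of the proton pump, by 0.83 (adjusted p = 0.00794). Lamp2, a lysosomal membrane gene, and Hexa, a hexosaminidase gene, were the other ones that fell, by 0.42 and 0.27. Of the 4 measured genes of the interferon gamma pathway, Irf8 rose from 153 and 141 to 255 and 257 CPM (0.75, adjusted p = 0.00980) and the receptor gene Ifngr1 fell from 101 and 100.1 to 54.9 and 59.1 CPM (-0.87, adjusted p = 0.00338). The second receptor gene, Ifngr2, was at 44.6 and 44.5 against 53.9 and 50.2 CPM (0.18, adjusted p = 0.273), and Jak1 did not pass. Summed over 13 measured genes, neutrophil markers fell from 17263 and 12813 CPM in the wild-type to 5703 and 5535 CPM in the enhancer-deleted libraries. Those of basophils and mast cells fell from 187 and 176 to 66.6 and 66.5 CPM over 5. Erythroid markers went from 2701 and 4188 to 585 and 523 CPM over 16 measured genes, and eosinophil markers from 42.3 and 26.5 to 0.535 and 0.351 CPM over 2. HSPC/multipotent markers instead rose from 449 and 477 to 630 and 677 CPM over 12. Dendritic markers went from 247 and 226 to 277 and 296 CPM over 4, and B lymphoid ones from 63.1 and 68.5 to 73.2 and 75.0 CPM over 2. The genotypes overlapped for monocyte/macrophage and megakaryocyte markers. The part of these cell types in the all-cell differences was not tested. Within monocyte/macrophage-like cells, 1.2% of 3570 genes passed. None did from the lists of class I presentation, other lysosomal proteases and inhibitors, other lysosomal genes, or the interferon gamma pathway. In this order, the medians of these 4 lists were 0.18, -0.06, -0.02 and 0.25. In the same cells the edgeR adjusted p of Psap was 0.0751.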

How the data were processed

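Libraries were made on the 10x Genomics Chromium platform, per the labels' protocols; Cell Ranger 2.0.2, Seurat 2.3.4 and mm10 are named in the submitters' processing notes. The authors deposited counts, whole-number UMIs of 3624 genes in 9960 cells (4980 per genotype), without normalization, beside a gene list and a genotype and library letter per cell. How genes and cells were chosen, and the counting annotation, are not given in the sources used here, and genes outside this panel were not analysed here.

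UMIs were summed per library (all cells, or a class with at least 50 cells in each library) and tested over all genes with edgeR 4.0.16 (filterByExpr, TMM, quasi-likelihood test, Benjamini-Hochberg adjustment) in R 4.3.3; DESeq2 1.42.0 was an alternative. Interactions kept library as a factor. The edgeR fits over all cells and in monocyte/macrophage-like cells were tried on simulated counts of known answer. So were the interaction of monocyte/macrophage-like with HSPC/multipotent-like cells and DESeq2's Wald test over all cells. The other class fits and pairs and the permutation tests were not. Cells were clustered with scanpy 1.11.5 and Leiden at resolution 1.0 on 1000 variable genes, 30 components and 15 neighbours, leaving out 50 pathway genes including the 5 studied, with Irf8 kept; a class was named from at least 3 markers, so names are rebuilt and unnamed clusters keep numbers. A doublet caller, scrublet, marked 9 cells, under 0.5%, and was not used. Letters were tied to genotypes by the deposited grouping and not to sample numbers. Wild type and deleted embryos are separate, so p-values of the genotype tests measure the spread between 2 libraries each. Interactions compare classes within a library, so their p-values rest on how the class difference varies between libraries of a genotype. The 5 genes and the gene lists were chosen with earlier results of these data known. Genes named are the 5, Gata2, Irf8, up to 3 genes per list with the smallest all-cell p, the 3 genes most like each of the 5, and leading cluster genes. Others named (Ctsd, Ctsb, Ctsc, Ctsl, Ctsz, Lamp2, Hexa, Jak1, Lyz2, and markers in cluster 9, in cells with Cd74 or in erythroid-like cells) were added after values were seen. GENCODE M21 and RefSeq tables gave positions and promoters.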

Additional observations from a re-analysis of the deposited data

Results flagged for a closer look

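Differences between cell classes in the effect of the deletion passed an edgeR interaction test for 3 of the 5 genes. H2-DMa differed by 0.55 and Cd74 by 4.06 (log2) between monocyte/macrophage-like and HSPC/multipotent-like cells, where 12.9% of all genes passed. Without library A the H2-DMa value was 0.29. Without the cell holding most Cd74 UMIs in each library, Cd74 missed the threshold (1.87, edgeR adjusted p = 0.172). Ctss differed by 1.96 and H2-DMa by 0.96 between monocyte/macrophage-like cells and cluster 8, where 8.82% of all genes passed. H2-DMa differed by -0.77 between clusters 8 and 10, where 2.99% passed. Cluster 9 holds 202 of 424 and 218 of 375 wild-type cells of the monocyte/macrophage-like class and 91 and 98 of 560 enhancer-deleted ones. With cluster 3 alone in place of that class, the differences from HSPC/multipotent-like cells were 0.21 for H2-DMa (edgeR adjusted p = 0.409) and 3.81 for Cd74 (adjusted p = 0.00559). There 10.2% of all genes passed. The differences from cluster 8 were then 1.22 for Ctss (adjusted p = 0.0529) and 0.60 for H2-DMa (adjusted p = 0.0286), where 4.77% of all genes passed.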

How the results depend on the processing

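No paired analysis was possible because the library letters are not tied to the replicate numbers of the labels. The 2 libraries per genotype limit every p, and the enhancer-deleted cells are shallower. Leaving out doublets was not run, since the caller marked 9 cells in all, and leaving out dendritic or mature macrophage cells was not run, since no cluster was named for them and 1 of 11 mature macrophage markers is in the panel. The causes of the changes below were not tested.

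Over all cells, 321 genes passed; 734 passed with DESeq2's Wald test and 66 to 291 with each library left out, the fewest without library A (66) and library B (112). H2-DMa kept its direction under all 13 alternatives and its call under 12, all but without library A, and ranged from 0.68 to 0.89 with a library left out. Cd74 ranged from -0.19 to 1.38 with a library left out and was -0.71 without monocyte/macrophage-like cells.

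Within monocyte/macrophage-like cells, where 43 of 3570 genes passed, H2-DMa passed with DESeq2's Wald test (0.75, adjusted p = 0.00482, with 102 of 3617 genes), all genes in clustering (0.69, with 146 of 3579) and Leiden resolution 2.0 (0.39, with 94 of 3562, where Ifi30 also passed, at -0.52). At resolution 0.5, 0 genes passed by edgeR, where 395 had an unadjusted p under 0.05. H2-DMa ranged from 0.53 to 1.00 with a library left out. Cd74 passed with the Wald test (2.53) and ranged from 1.29 to 3.54, and Ifi30 from -0.16 to 0.10. Ctsh turned to -0.17 in cluster 3, -0.83 in cluster 9 and -0.25 at resolution 2.0, and Ctss to -0.10 in cluster 3 and -0.12 at resolution 0.5. In HSPC/multipotent-like cells Ctss was 0.11 at resolution 0.5, and in cluster 8 H2-DMa ranged from -0.49 to 0.0176 with a library left out.

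For the difference between monocyte/macrophage-like and HSPC/multipotent-like cells, cluster 3 alone gave 0.21 for H2-DMa and -0.81 for Ifi30, which then passed (adjusted p = 0.0300), and Cd74 was 1.87 without its highest cells. Against cluster 8, cluster 3 alone gave 1.22 for Ctss. With a library left out, the values ranged from 0.29 to 0.83 for H2-DMa, 3.09 to 4.76 for Cd74, 0.89 to 1.76 for Ctss and -1.68 to 0.28 for Ctsh, and between clusters 8 and 10 from -0.89 to -0.69 for H2-DMa. Ctss passed without library B (1.76, adjusted p = 0.0463).

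Differences in the share of cells with a UMI (percentage points, enhancer deleted minus wild type) turned negative without thinning over all cells for H2-DMa (-0.419), Ifi30 (-6.72), Ctss (-0.288) and Ctsh (-2.02) and in monocyte/macrophage-like cells for H2-DMa (-10.5), Ctss (-6.30) and Ctsh (-16.4). Thinned to the median of 9777 UMIs, which leaves out all shallower cells, they were negative over all cells for Cd74 (-0.0952) and Ctsh (-2.11). In that class they were then negative for Cd74 (-0.841), Ctss (-1.61) and Ctsh (-9.64). At 4346 UMIs, Cd74 over all cells ranged from -0.0373 to 0.302 with a library left out. With the mix of classes held equal, the log2 ratio turned negative for Cd74 with equal weights (-0.0597) and 13 clusters (-0.14), ranging from -0.72 to 1.01 with a library left out, for Ctss at resolution 2.0 (-0.15) and with 13 clusters (-0.21), and for Ctsh (-0.27 and -0.28). The settings with 13 clusters, with cluster 3 or 9 alone, without monocyte/macrophage-like cells and without highest cells were chosen after seeing the data.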
